A study of Mus musculus with 10 samples.

Results

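Gene levels in the cord of young adult mice are described here: spinal cords taken at 8 weeks of age from mice of C57BL/6, an inbred strain widely used in the laboratory. It comprises 6 of the 10 RNA sequencing libraries of the study, 3 from males and 3 from females, and was chosen by age alone; the other 4 libraries are from 4-week cords. All 6 carry the same strain and tissue labels, and no treatment, mutation or transgene is named for any of them. RNA was taken from the removed cords with Trizol, an acid phenol reagent, and the labels do not say which cord segments were taken, whether libraries came from single or pooled animals, or whether each library is a separate animal, so all spreads and p-values measure only the differences between these samples, which may be technical.

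The spinal cord carries the long myelinated axons that link brain and body, and local circuits of grey matter that relay touch and pain and drive muscle. Oligodendrocytes wrap the axons in myelin, of which myelin basic protein is a main component, and astrocytes clear glutamate and potassium and line vessels with the water channel aquaporin 4. Fast excitation runs through glutamate receptors, and fast inhibition through both GABA-A and glycine receptors, the latter being a hallmark of cord and brainstem. Motor neurons, a small share of the cells, use acetylcholine. The levels below are RNA levels of the whole tissue, in which fewer cells of a type and less RNA per cell cannot be told apart.

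A library held between 8978589 and 10563942 counts over 26301 gene identifiers. Levels are given in CPM, the share of a library's total count that fell on a gene, where 1 CPM stands for 8.98 to 10.6 counts. A longer RNA yields more reads, so levels of different genes are compared in CPM per kb, the CPM divided by the length of a gene's exons in kilobases. Ranks and sums in CPM are shares of the counts, to which longer RNAs give more. A mean of at least 1 CPM was reached by 14925 genes, 10 CPM by 10435, 100 CPM by 2220 and 1000 CPM by 75, while 5875 had no count in any of the 6 libraries. The median gene above 1 CPM stood at 24.1 CPM and 8.19 CPM per kb. Counts were spread over many genes: 147 genes held 25% of them, 979 held 50% and 6356 held 90%. Sex-linked genes matched the labelled sex in all 6 libraries. Male library 2 stood apart by lung genes, which summed to 898 CPM there and 105 CPM in male library 3 against at most 3.40 CPM elsewhere, so results that could rest on these libraries are also given without them.

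The tissue label was checked against marker genes, all of which were present. Mbp (Entrez Gene 17196), encoding myelin basic protein, stood at a lowest of 21739, a median of 22666 and a highest of 24466 CPM and was the first gene by CPM and the 5th by CPM per kb. Nefl (18039), the light neurofilament of axons, lay between 1816 and 2071 CPM around a median of 1871, the 28th gene by CPM. Aqp4 (11829), the astrocyte water channel, lay between 893 and 1026 CPM around a median of 984 and ranked 79th by CPM. Slc6a5 (104245), the transporter that returns glycine to inhibitory neurons, lay between 89.3 and 142 CPM around a median of 123, and Chat (12647), which makes acetylcholine, between 21.6 and 31.4 CPM around 28.2. The libraries thus lay within 1.2-fold of each other for Mbp, Nefl and Aqp4 and spread more widely for Slc6a5 and Chat, both of which were lowest in male library 1. The cord also carried its position code. Of 39 Hox genes, which mark the body axis from hindbrain to tail, 34 reached 1 CPM, led by Hoxb8 at 80.6 ± 2.34 CPM per kb (SD, n = 6) and Hoxb9 at 41.1 ± 1.38, with Hoxb8 1.96 ± 0.0434 times Hoxb9. Below 1 CPM were Hoxb1, a gene of the hindbrain, at 0.0348, and the tail-end genes Hoxa13 at 0.188, Hoxd13 at 0.175 and Hoxd12 at 0.0332 CPM. Of 12 transcription factors of the forebrain, 6, among them Emx1, Emx2 and Otx2, had no count, and Neurod6 alone reached 1 CPM, at 3.78 ± 0.402.

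**Figure D1:**
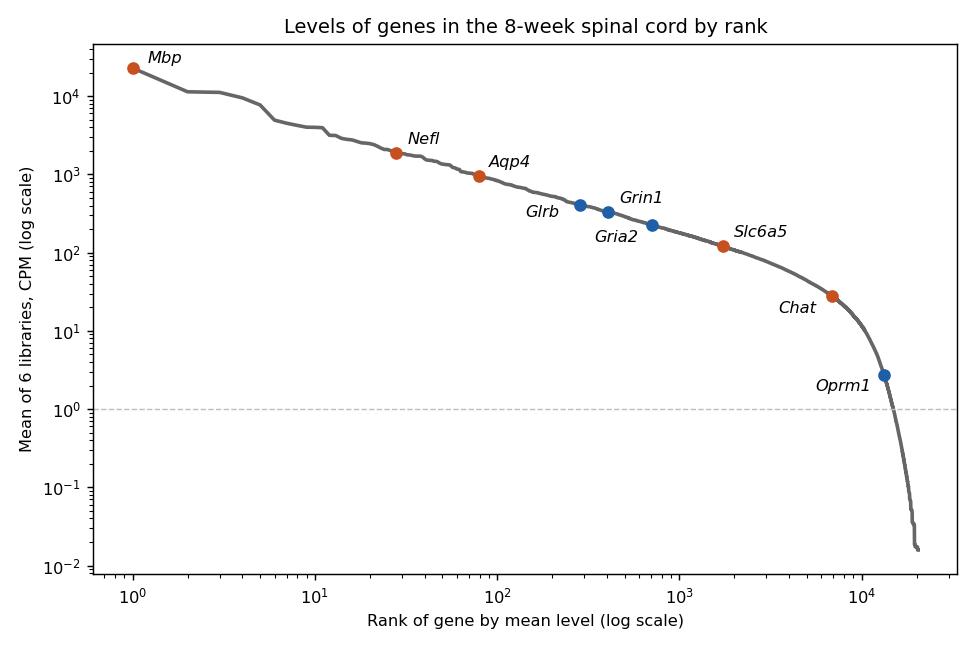
Mean level over the 6 libraries of 8 weeks in CPM (vertical, log scale) of each gene with a count (grey line), against its rank (horizontal, log scale). Orange points are the 5 marker genes, blue points other genes named in the text, and the dashed line is 1 CPM; Mbp ranks 1, Nefl 28, Aqp4 79, Slc6a5 1743 and Chat 6907.

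The largest shares of counts came from RNAs of myelin, mitochondria and the axon. After Mbp at 22839.9 ± 897 CPM (SD, n = 6) came the mitochondrial COX1, a subunit of cytochrome oxidase, at 11367 ± 599.9 CPM. The 3 genes above 10000 CPM took 4.54% of all counts, and the 10 most abundant genes between 8.10% and 8.92% of a library. Further down the first 30 stood Sparcl1, a matrix protein of astrocytes, at 4009.6 CPM, Scd2, a fatty acid desaturase, at 3949, the ferritin chain Fth1 at 3138, the vesicle fusion protein Snap25 at 2802, the glutamate transporter Slc1a2 at 2755, the astrocyte filament Gfap at 2531, the axonal motor Kif5a at 2168 and the iron carrier Trf at 2083 CPM. Snap25 (2709.6 to 2894 CPM) differed little between libraries. Meg3, a long non-coding RNA of neurons, varied more, from 1687 CPM in male library 1 to 3049 in female library 3. Per kb of exon, the mitochondrial genes CYTB at 8305, ND1 at 8065 and COX1 at 7358 CPM per kb led, and nuclear genes near the top were Mbp at 3411 ± 134, Fth1 at 2092 ± 244, Sparcl1 at 1453 ± 51.4, Snap25 at 1254 ± 28.2, the lipid carrier Apoe at 1095 ± 115 and the brain creatine kinase Ckb at 1024 ± 83.8. Of the first 30 genes on each scale, 18 were the same. Atp1b1, the beta subunit of the sodium pump, which restores ion gradients after firing, stood at 763 ± 36.5 CPM per kb.

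Promoter sequence was looked at for these abundant genes, to show what lies directly upstream of some of them. In the 100 bases before the annotated start, taken from RefSeq (GRCm38.p6; 32851 promoters of 27025 genes, matched by Entrez identifier, mitochondria left out), 3 motifs were searched on both strands, none of which contains another. The letters TATAAA, which are known as the core promoter motif bound by the general transcription machinery, were in 5.56% of all promoters, in 2.63% of those of genes with at least 1 CPM, in 11.6% of those of the genes below it, and in 6 of 95 (6.32%) of those of the 100 highest nuclear genes per kb. The letters GGGCGG, a GC box, were in 24.7%, 43.9%, 11.8% and 31.6% in the same order, and the CCAAT box in 18.9%, 21.1%, 19.8% and 26.3%. These are matches of letters, not measured binding. The 95 promoters belong to 70 of the 100 highest nuclear genes, and the other genes had none in the set. Below are 2 abundant genes with TATAAA on the gene's own strand at the usual distance, Ckb (chr12:111672339-111672438, minus strand) with its first base 28 bases before the start, and Ndrg4, a gene of neurons at 601 CPM per kb (chr8:95702956-95703055, plus strand), with its first base 30 before it; capitals mark the match.
Ckb: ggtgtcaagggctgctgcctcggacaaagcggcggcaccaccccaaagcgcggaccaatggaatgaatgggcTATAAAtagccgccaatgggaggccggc
Ndrg4: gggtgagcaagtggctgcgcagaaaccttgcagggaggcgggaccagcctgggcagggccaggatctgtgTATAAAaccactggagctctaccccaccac

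Oligodendrocyte genes had the largest summed CPM of the cell type lists. The 20 genes of mature oligodendrocytes summed to 46823 ± 2478 CPM (SD, n = 6), from 43867 in male library 3 to 51204 in female library 2, and 19 of the 20 stood above 100 CPM. Below Mbp, whose range was apart from that of every other member, stood Trf at 810.1 ± 70.4, the myelin enzyme Cnp at 742 ± 54.7, the axon-facing adhesion protein Mag at 504 ± 24.6, Apod at 501 ± 60.4, the tight junction protein Cldn11 at 426 ± 24.9 and Mal at 388 ± 22.0 CPM per kb. Mog, on the outermost myelin surface, stood at 248 ± 18.7 and the lowest of the 20, Anln, at 45.5 CPM per kb. The lists of earlier stages had smaller sums. Genes of newly forming oligodendrocytes summed to 1199 ± 36.9 CPM, of which Bcas1 gave 965 ± 28.1, Gpr17, a receptor of cells about to myelinate, 96.1 ± 8.14 and the secreted factor Bmp4 4.75 ± 0.552 CPM. The 10 precursor genes summed to 485 ± 19.4 CPM and were led per kb by Lhfpl3 at 24.3 ± 0.984 and Ptprz1 at 19.3 ± 1.24, with Pdgfra, the growth factor receptor of precursors, at 8.88 ± 0.364 and Cspg4 at 2.87 ± 0.434 CPM per kb.

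Astrocyte genes summed to 15728 ± 781 CPM over 18 genes. S100b at 784 ± 56.1, the glycolytic enzyme Aldoc at 699 ± 55.0, Gfap at 622 ± 60.2, glutamine synthetase Glul at 613 ± 35.4 and the pump subunit Atp1b2 at 586 ± 26.2 CPM per kb were the leading members, and Aqp4 stood at 163 ± 9.43. Of the glutamate transporters, Slc1a2 stood at 228 ± 21.6 CPM per kb and Slc1a3 at 41.4, a ratio of 5.53 ± 0.662 with Slc1a2 above in all 6 libraries. The lowest of the list was Sox9, a glial transcription factor, at 10.1 CPM per kb. The other aquaporin genes were low: over 7 of them the sum was 15.3 to 18.4 CPM in 5 libraries and 29.7 CPM in male library 2, where Aqp5, which is also a gene of lung, stood at 8.91 CPM. Aqp4 exceeded Aqp1 by 83.2 ± 34.3 times per kb. Microglial genes summed to 659.5 ± 51.7 CPM over 17 genes, with the complement genes C1qa, C1qb and C1qc at 53.1 ± 7.41, 53.0 ± 8.76 and 43.4 ± 6.16, and the receptor P2ry12 at 14.1 ± 1.90 CPM per kb.

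Neuronal genes summed to 16217 ± 997 CPM over 17 genes, lowest in male library 1 (15039) and highest in male library 3 (17443). Snap25 led per kb, followed by Uchl1 at 578 ± 50.3 and Nefl at 561 ± 28.0, whose ranges overlapped. The neurofilament genes stood in the order Nefl, Nefm (401 ± 30.8) and Nefh (304 ± 17.2 CPM per kb), each above the next in all 6 libraries, by 1.40 ± 0.0769 and 1.32 ± 0.0425 times. Of the vesicular glutamate transporters, which define excitatory neurons, Slc17a6 stood at 61.8 ± 1.78 CPM per kb, against 1.44 ± 0.591 for Slc17a7, the form of the cortex, and 0.357 ± 0.117 for Slc17a8. The excitatory list of 12 genes summed to 387 ± 11.6 CPM and included the peptides Cck and Tac1 at 31.2 ± 2.25 and 25.7 ± 2.05 CPM per kb, and the dorsal horn gene Lmx1b at 0.891 ± 0.178.

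Inhibitory genes summed to 1284 ± 28.0 CPM over 11 genes, with a coefficient of variation (CV, the SD over the mean) of 2.18%. The vesicular inhibitory transporter Slc32a1 stood at 78.3 ± 3.85, the GABA-making enzymes Gad1 and Gad2 at 52.5 ± 2.06 and 22.9 ± 1.60, and Slc6a5 at 48.6 ± 8.01 CPM per kb. Gad1 exceeded Gad2 2.30 ± 0.0942 times, in all 6 libraries. The second glycine transporter, Slc6a9, which astrocytes carry, stood at 116 ± 4.96 CPM per kb, 2.46 ± 0.506 times Slc6a5 and above it in all 6 libraries. Early determinants of inhibitory neurons, such as Pax2 at 2.08, En1 at 0.872 and Gata3 at 0.321 CPM per kb, were near the bottom.

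Cholinergic and motor neuron genes summed to 569 ± 34.3 CPM over 13 genes, of which 9 stood above 10 CPM. The filament gene Prph, at 41.7 ± 4.61, and the peptide gene Calca, at 33.0 ± 4.27 CPM per kb, were the highest, followed by the vesicular acetylcholine transporter Slc18a3 at 20.3 ± 1.06, Ret at 19.1 ± 1.28 and the choline transporter Slc5a7 at 17.2 ± 1.96. Chat stood at 9.61 ± 1.23 CPM per kb. Slc18a3, whose gene lies within an intron of Chat, exceeded it 2.14 ± 0.274 times per kb in all 6 libraries. How the counting treated overlapping genes is not given, so the assignment of reads between the 2 is uncertain. The transcription factors that specify motor neurons in the embryo stood close to the detection level, with Isl2 at 2.12, Isl1 at 2.16, Lhx3 at 1.71 and Mnx1 at 1.66 CPM.

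Vessel, lining and ventricle lists had smaller sums. The endothelial list summed to 355 ± 42.2 CPM (Itm2a 38.3 ± 4.62 and the glucose transporter Slc2a1 25.5 ± 2.24 CPM per kb), the pericyte list to 157 ± 25.4, the ependymal list to 63.4 ± 4.93, of which the cilia regulator Foxj1 gave 39.1 ± 2.36, and the vascular smooth muscle list to 9.63 ± 1.69 CPM. Genes of meningeal fibroblasts summed to between 432 and 552 CPM in 5 libraries and to 820.3 CPM in male library 1, which was also highest for Ptgds, a prostaglandin synthase of the meninges, at 1401 CPM against 691 to 937 in the others.

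**Figure D2:**
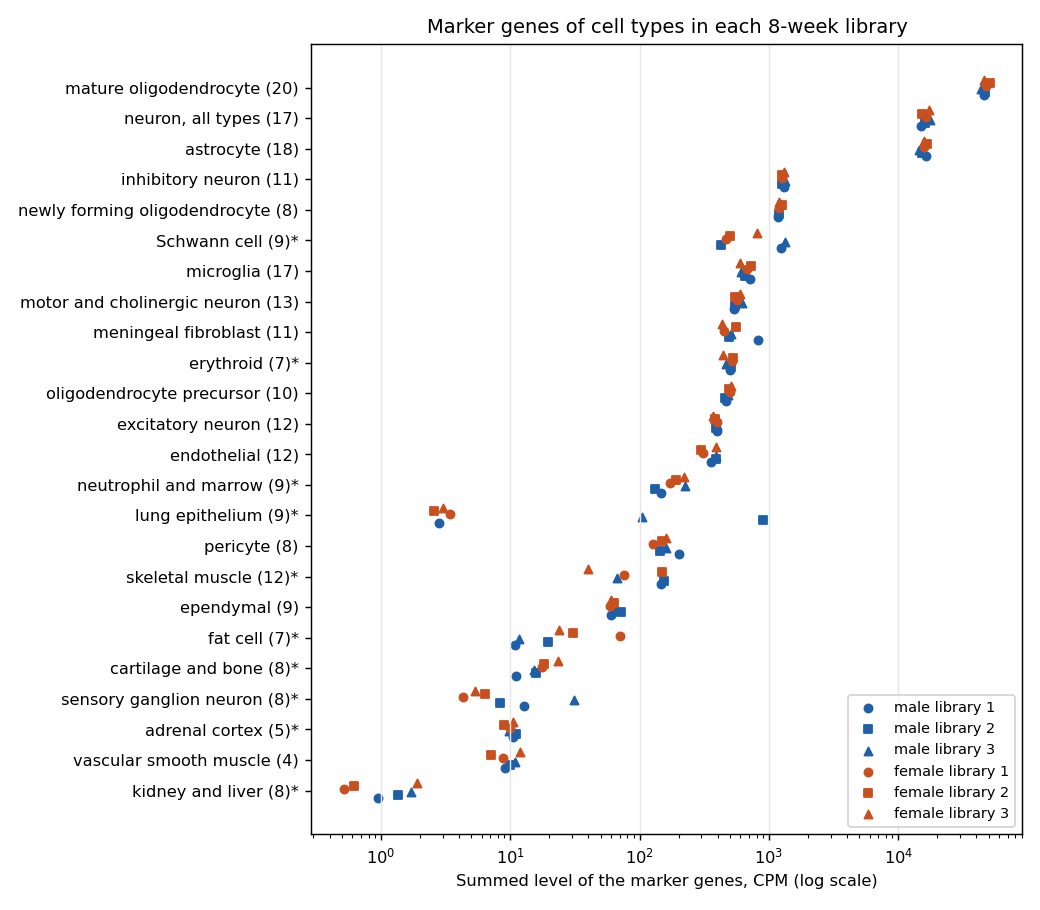
Summed CPM (horizontal, log scale) of the marker genes of each cell type (vertical, number of genes in brackets) in each of the 3 male (blue) and 3 female (orange) libraries of 8 weeks; an asterisk marks lists of cells outside the cord. Mature oligodendrocyte genes lie near 46823 CPM, and lung genes stand out at 898 CPM in male library 2.

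Genes of cells outside the cord were counted in every library, and most of their lists differed between libraries. Schwann cell genes, which mark the nerve roots, summed to 1247 CPM in male library 1, 423 in male 2, 1336 in male 3, 467 in female 1, 503 in female 2 and 805 in female 3, so male libraries 1 and 3 stood above the rest. Genes of sensory ganglia summed to 30.9 CPM in male library 3 and 4.33 to 12.7 CPM in the others. Lung genes, such as the surfactant protein gene Sftpc, summed to 898 CPM in male library 2, 105 CPM in male library 3 and 2.57 to 3.40 CPM in the other 4. Skeletal muscle genes summed to 39.7 to 155 CPM, fat genes to 70.3 CPM in female library 1 and 10.9 to 30.7 CPM in the others, and kidney and liver genes to at most 1.88 CPM. Erythroid genes of blood, which differed little between libraries, summed to 494 ± 33.6 CPM (CV 6.81%) and neutrophil genes to 181 ± 38.0 CPM. Gene levels reported here include this material, whose part in them was not tested. Over the 6 libraries the lung sum was 169 ± 359 CPM, and without male libraries 2 and 3 it was 2.96 CPM.

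Most receptor and channel genes of the lists were detected. Of 224 receptor genes in the lists, 188 (83.9%) had a mean of at least 1 CPM and 28 (12.5%) at least 100 CPM. Of 144 channel genes and cotransporters, 122 (84.7%) and 28 (19.4%) did, against 56.7% and 8.44% of all genes listed. All genes listed include genes that make no protein, and 13873 of 20829 nuclear protein-coding genes reached 1 CPM. The lists of cells outside the cord reached 73.2% and 6.10%.

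Among the AMPA receptor subunits, which carry fast excitation, Gria4 was highest. It lay between 196 and 223 CPM, at 34.3 ± 1.76 CPM per kb, followed by Gria1 at 29.8 ± 2.44, Gria2 at 21.3 ± 2.39 and Gria3 at 21.2 ± 2.34. Gria4 exceeded Gria1 in all 6 libraries, by 1.16 ± 0.0975 times, though their ranges over libraries overlapped. Gria1 exceeded Gria2, the subunit that blocks calcium entry, 1.41 ± 0.160 times, with ranges apart, while Gria2 and Gria3 did not differ beyond their spread, with a ratio of 1.00 ± 0.0267. In plain CPM, not divided by length, Gria2 (223 ± 25.1) stood above Gria1 (172 ± 14.1). Of the auxiliary subunits, Cacng7 at 33.0 ± 1.49 and Cnih2 at 28.1 ± 1.70 CPM per kb led, and Cacng2, stargazin, stood at 11.8 ± 1.15.

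Among the NMDA receptor subunits, the obligatory Grin1 lay between 299 and 363 CPM, at 75.9 ± 5.08 CPM per kb. The next, Grin2c, stood at 5.21 ± 0.529, so Grin1 exceeded it 14.7 ± 1.42 times. Grin2d, at 4.57 ± 0.552, and Grin3a, at 3.47 ± 0.409, had ranges that overlapped their neighbours. Grin2a, at 0.807 ± 0.261, and Grin2b, at 0.257 ± 0.0889 CPM per kb, the forms most studied in forebrain, were the lowest of the 7, and in CPM they stood at 3.55 and 6.18, the reverse order. Of kainate and delta subunits Grik5 led at 24.7 ± 1.50 CPM per kb. Metabotropic receptors were led by Grm5, at 106 ± 8.03 CPM and between 11.8 and 14.6 CPM per kb, Grm3 at 11.5 ± 0.847 and Grm7 at 11.2 ± 1.07 CPM per kb, which overlapped, and Grm6, of the retina, had no count.

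Glycine receptor genes were dominated by the beta subunit, which anchors the receptor at synapses. Glrb read 414, 411, 412, 409, 412 and 399.8 CPM in male libraries 1 to 3 and female libraries 1 to 3, a CV of 1.25%, and stood at 135 ± 1.69 CPM per kb. Glra1, the adult alpha subunit, varied far more, from 38.8 to 75.8 CPM, at 25.3 ± 6.51 CPM per kb. Glra2, the form of the embryo, stood at 4.69 ± 0.505, Glra3, of pain circuits, at 0.887 ± 0.228 and Glra4 at 0.389 ± 0.190 CPM per kb. The order Glrb, Glra1, Glra2, Glra3 had ranges apart at each step, while Glra3 and Glra4 overlapped. Glra1 exceeded Glra2 5.50 ± 1.66 times.

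Of 19 GABA-A receptor subunits, 14 reached 1 CPM. Gabra3 was the highest alpha subunit, between 141 and 159 CPM and at 41.0 ± 1.74 CPM per kb, above Gabra5 at 23.4 ± 0.780, Gabra2 at 6.20 ± 1.08 and Gabra4 at 5.69 ± 0.344; Gabra2 and Gabra4 overlapped, and Gabra6, of cerebellar granule cells, had no count. Gabra3 exceeded Gabra5 in all 6 libraries, by 1.76 ± 0.0658 times. Of the beta and gamma subunits, Gabrb2 stood at 17.7 and Gabrg1 at 11.5 CPM per kb. Gabrd, of receptors outside synapses, stood at 0.985 CPM. The GABA-B subunit Gabbr1 stood at 98.7 ± 4.92 and its partner Gabbr2 at 14.8 ± 1.54 CPM per kb, a ratio of 6.72 ± 0.734. The chloride cotransporter Slc12a5, which keeps GABA and glycine inhibitory in mature neurons, stood at 104 ± 6.43 and Slc12a2, which loads chloride, at 51.9 ± 1.92 CPM per kb, a ratio of 2.01 ± 0.0924 with Slc12a5 above in all 6 libraries.

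**Figure D3:**
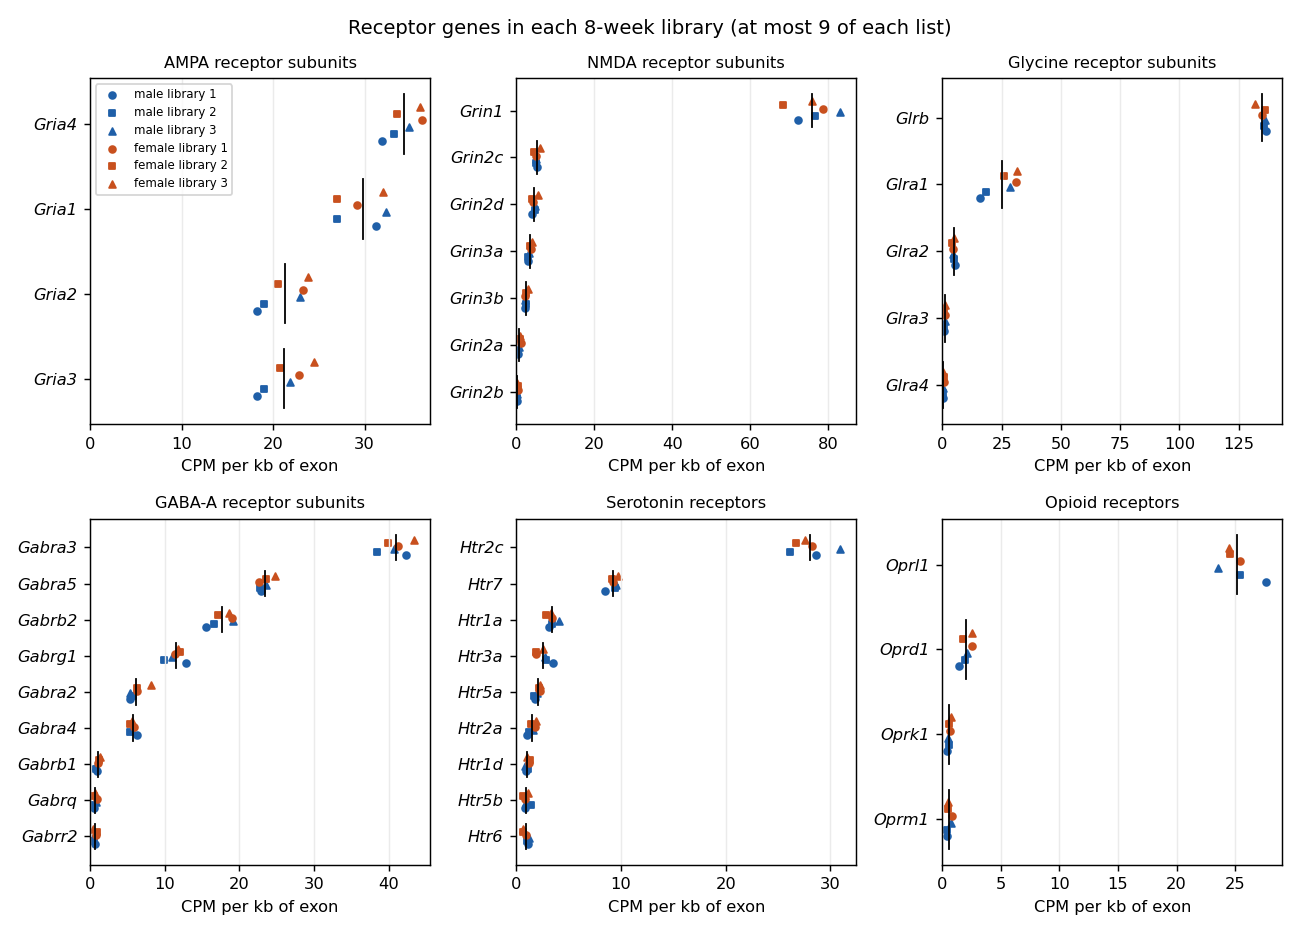
CPM per kb of exon (horizontal, linear) of receptor genes (vertical, at most 9 of each list, some members not shown), 1 point per library, male in blue and female in orange; the black bar is the mean of the 6. Glrb lies in a narrow band near 135 and Glra1 spreads around 25.3 CPM per kb, and Grin1, Htr2c and Oprl1 stand clear of the other members of their lists.

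Receptors of modulators each had few leading members. Htr2c, a serotonin receptor, lay between 124 and 147 CPM, at 28.1 ± 1.70 CPM per kb, 3.04 ± 0.241 times Htr7 (9.24 ± 0.438), and the ion channel Htr3a stood at 2.56 ± 0.598. The nociceptin receptor Oprl1 lay between 74.7 and 87.9 CPM, at 25.2 ± 1.41 CPM per kb, while the delta receptor Oprd1 stood at 2.03 ± 0.438, the kappa receptor Oprk1 at 0.565 ± 0.131 and the mu receptor Oprm1, the main target of morphine, at 0.555 ± 0.171. Oprm1 lay between 1.89 and 3.92 CPM, where 1 CPM stands for about 10 counts. Adra2a, the receptor through which noradrenaline and clonidine dampen pain, led the adrenergic and dopamine list at 14.8 ± 0.948, with Drd2 at 4.25 ± 0.273 and Drd1 at 0.315 ± 0.119 CPM per kb. Nicotinic subunits were led by Chrna4 at 12.2 ± 1.10, Chrnb2 at 9.70 ± 0.825 and Chrna7 at 4.50 ± 0.458 CPM per kb. Of the subunits of muscle endplates, Chrna1 stood at 0.531 and Chrne at 0.173 CPM, and Chrnd and Chrng had no count. Chrnb1 reached 2.18 CPM. Of muscarinic receptors Chrm2, at 2.99 ± 0.597 CPM per kb, was highest. The adenosine receptor Adora1 stood at 43.5 ± 1.30, 117 ± 27.6 times Adora2a (0.389 ± 0.0935), which marks the striatum. Of the 23 genes of the neuropeptide receptor list, Sstr1 was highest at 9.85 ± 1.03, with the substance P receptor Tacr1 at 3.51 ± 0.385 CPM per kb. The neurotensin receptor Ntsr2, which was in the astrocyte list, stood at 139 ± 12.6 CPM per kb.

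Gpr37l1, a receptor of astrocytes, stood at 229 ± 16.4 CPM per kb and exceeded Gpr37, of oligodendrocytes, 4.12 ± 0.184 times. S1pr1 stood at 51.5 ± 2.73, Lpar1 at 48.5 ± 3.26 and S1pr5, of oligodendrocytes, at 35.3 ± 2.48, against 11.2 ± 0.804 for the cannabinoid receptor Cnr1. Of growth factor receptors, Ddr1, of oligodendrocytes, led at 60.5 ± 2.41 and Ntrk2, which binds BDNF, followed at 42.3 ± 1.43. The thyroid hormone receptor Thra, at 83.3 ± 1.65 CPM per kb, and the clock gene Nr1d1, at 41.4 ± 3.38, led the nuclear receptors. The glucocorticoid receptor Nr3c1 stood at 16.7 ± 0.804, the estrogen receptor Esr1 at 0.537, and Nr2e1 had no count.

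Channel genes differed widely in level within their families. Of the pore-forming sodium channels, Scn1a stood at 42.1 ± 3.97, Scn8a, the channel of the nodes of Ranvier, at 29.5 ± 3.88 and Scn2a at 9.55 ± 1.20 CPM per kb; Scn1a exceeded Scn8a 1.43 ± 0.0654 times in all 6 libraries, and Scn8a exceeded Scn2a 3.09 ± 0.189 times. The beta subunit Scn4b, at 112 ± 6.47 CPM per kb and 559.8 CPM, was higher still. Scn9a, best known from sensory neurons, stood at 0.956 ± 0.242 and Scn4a, of muscle, at 0.0236 ± 0.0134 CPM per kb. Of Kv channels, Kcna1, found beside the nodes, at 144 ± 14.7, and its partner Kcnab2, at 144 ± 3.98, overlapped. Kcna1 exceeded Kcna2 (6.92 ± 1.59) 21.4 ± 3.28 times per kb and 7.44 times in CPM, the gap between the scales being set by the exon lengths used. Kcnc1, of fast spiking neurons, stood at 31.6 CPM per kb.

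Kcnj10, the potassium channel of astrocytes and oligodendrocytes, lay between 1145 and 1291 CPM, at 223 ± 12.9 CPM per kb, and its partner Kcnj16 stood at 21.0 ± 1.10, a ratio of 10.6 ± 0.541. Hcn2, a pacemaker channel, stood at 140.3 ± 7.30 CPM per kb against 1.67 for Hcn4. Among leak channels Kcnk1 led at 51.5 ± 2.69, and the sodium-activated Kcnt1 stood at 27.2 ± 2.66. Of calcium channel genes, the auxiliary subunits Cacna2d3 and Cacnb4 led at 22.6 ± 1.36 and 21.1 ± 1.90, with overlapping ranges, and of the pores, Cacna1a of nerve terminals stood at 12.8 ± 1.49, 2.71 ± 0.190 times Cacna1b. Cacna2d1, the binding site of gabapentin, stood at 12.2 ± 1.15. The acid sensor Asic1 stood at 21.4 ± 1.18 and Asic2 at 12.2 ± 0.615, while the heat sensor Trpv1 (0.0598), the irritant sensor Trpa1 (0.120) and the cold sensor Trpm8 (0.177 CPM per kb) were near the floor; Trpv1 had no count in at least 1 library and at most 0.568 CPM. Panx2, at 53.3 ± 2.48, and the oligodendrocyte connexin Gjc3, at 51.5 ± 3.25, led the list of connexins and pannexins. The astrocyte connexin Gja1, which was in the astrocyte list, stood higher, at 165 CPM per kb.

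**Figure D4:**
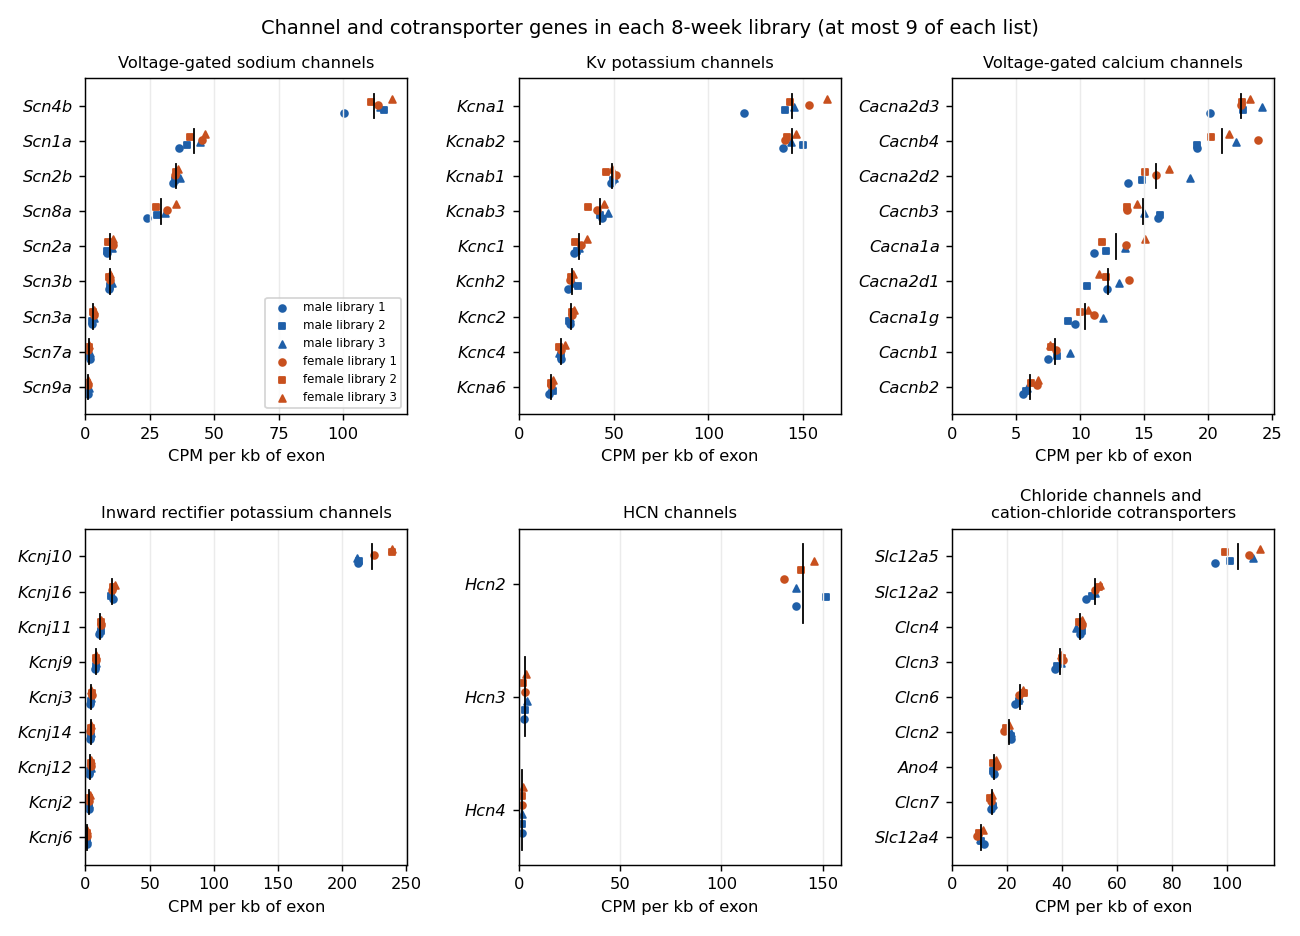
CPM per kb of exon (horizontal, linear) of channel and cotransporter genes (vertical, at most 9 of each list, some members not shown), 1 point per library, male in blue and female in orange; the black bar is the mean of the 6. Kcnj10 (223) and Hcn2 (140.3 CPM per kb) stand far above the other members of their lists, while the calcium channel genes form a gradual series from 22.6 CPM per kb down.

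Of 23 neuropeptide and granule genes, 22 reached 1 CPM. The granule proteins Pcsk1n, at 263 ± 28.4, Chga, at 175 ± 9.45, and Scg2, at 153 ± 7.31 CPM per kb, were highest, followed by somatostatin, Sst, at 147 ± 4.99 and the enkephalin precursor Penk at 132 ± 25.4. Per kb, Sst lay above Penk in the 3 female libraries and below it in the 3 male libraries. Tac2 stood at 46.9 ± 5.70, Npy at 28.6 ± 1.44 and Nts at 20.6 ± 3.04, while Pomc stood at 1.11 and Ucn at 0.305 CPM per kb.

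Several genes that share most of their sequence with transcripts of other genes had few counts, while others did not. Mitochondrial protein genes held 4.40% ± 0.195 of counts, but unevenly. CYTB, ND1 and COX1 were among the 5 highest genes, while COX2 stood at 0.620 CPM, COX3 at 8.69, ATP6 at 1.05, ND3 at 2.85 and ND4L at 0.0515 CPM, although these lie on the same transcript as COX1. The mean of COX3 rested on male library 2, at 45.0 CPM. In the others COX3 lay between 0.568 and 2.93 CPM, and its median over the 6 libraries was 1.51. Of the 50-base windows of COX2, COX3, ATP6, ND4L and ND3, 98.0% to 100% occurred again, on the same strand, in an annotated transcript of another gene (GENCODE vM21), against 51.1% for COX1 and 0% for CYTB and ND1; ATP8, with 1 count in all, also had 0%. The nuclear genes Gapdh, at 1.63 CPM with 86.2% of windows shared, and Tuba1b, at 0.262 with 73.8%, and the ribosomal protein gene Rps6, at 7.48 with 84.6%, were likewise low. In contrast, ND4 stood at 4226 CPM with 62.2% of windows shared and Eef1a1 at 499 CPM with 59.2%. Of 23 ribosomal protein genes with over 50% of windows shared, 11 were under 10 CPM, and of 4 with at most 10% shared, 0 were. Trf, among the leading oligodendrocyte genes, had 79.8% of windows shared. Tmsb4x, at 0.119 CPM, and Cox8a, without a count, were low with 0% shared. Over protein-coding genes, those with no shared window had a median of 13.4 CPM, and 8.91% of them had no count. Of those with over 10 to 50% shared, 43.0% had no count, and of 520 with over 90% shared, 76.9%. Copies outside annotated transcripts were not counted, and whether reads with several places were dropped was not tested. None of the receptor and channel genes named here had over 50% of windows shared, but Grin2a had 47.8%. The part of shared sequence in its low level was not tested.

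Levels agreed closely between libraries for most genes. Over the 10435 genes with at least 10 CPM the median CV was 7.29%, and 20 genes exceeded 50%. The steadiest above 100 CPM were Trpc4ap (246 to 252 CPM, CV 0.831%), the lysosome transport gene Arl8b (248 to 255), Rab14 (242 to 248) and Add1 (382 to 392). The 6 most variable were the lung genes Sftpb, Sftpc, Scgb1a1, Sftpa1, Ager and Cbr2, each highest in male library 2, where Sftpc stood at 385 and Scgb1a1 at 272 CPM against 43.0 and 32.2 in male library 3 and at most 0.515 CPM in the other 4. After them came Eif2s3y, Xist and Ddx3y, which differ by sex. In the lists of cord cells, the median CV was taken over members with at least 10 CPM. It was 5.94% for inhibitory neuron genes and 5.66% for neuron genes, against 37.9% for meningeal, 21.4% for pericyte and 19.3% for endothelial genes.

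**Figure D5:**
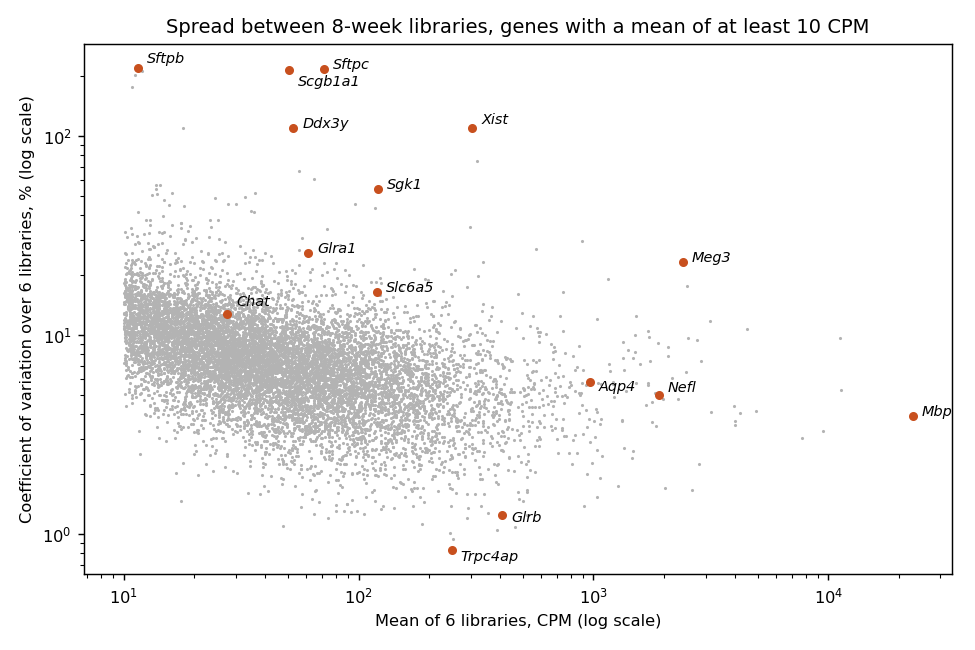
Coefficient of variation over the 6 libraries in % (vertical, log scale) against mean CPM (horizontal, log scale) for the 10435 genes with a mean of at least 10 CPM (grey), with named genes in orange. Lung genes such as Sftpc and sex-linked genes such as Xist stand above the cloud, and Trpc4ap and Glrb lie at its lower edge.

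Few genes passed the test threshold between the sexes at this age. With edgeR's quasi-likelihood test on the 6 libraries and Benjamini-Hochberg adjustment, 19 of 14929 genes tested (0.127%) had an adjusted p under 0.05, 13 higher (0.0871%) and 6 lower (0.0402%) in males, and 1493 had an unadjusted p under 0.05. On the Y chromosome, Ddx3y, a helicase gene, stood at 106, 99.8 and 110.1 CPM in males and at most 0.104 CPM in females. Eif2s3y, Uty and Kdm5d had no count in females; set against a floor of 3 counts over the female group they were at least 345-fold, 167-fold and 182-fold higher in males. Xist, which shuts down 1 X chromosome in female cells, stood at 641, 586 and 605 CPM in females and at most 0.334 in males. Of genes on the X chromosome, Ddx3x (log2 male over female −0.54, SE 0.05), Kdm6a (−0.71, SE 0.09), Kdm5c (−0.46, SE 0.07) and Gm2223 (−0.67, SE 0.09) were lower in males, and with Xist and Slc1a2 they make up the 6 lower calls.

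Outside the sex chromosomes, Sgk1, a kinase induced by corticosteroids, was higher in males, at 162, 209 and 157 CPM against 84.2, 61.1 and 48.2 in females (log2 difference 1.43, SE 0.16, edgeR adjusted p = 0.00182). All 3 male libraries lay above every female library. Penk, the enkephalin precursor, stood at 237, 218 and 219 CPM in males and 158, 165 and 154 in females, also with no overlap (0.48, SE 0.06, edgeR adjusted p = 0.00312). Slc1a2, the glutamate transporter, was lower in males, at 2490.2, 2451 and 2631 against 2954, 2998 and 3008 CPM (−0.26, SE 0.04, edgeR adjusted p = 0.0295). Higher in males were also Fxyd2, a sodium pump regulator (3.11, SE 0.44), Arl4d (1.08, SE 0.18), Plekhf1 (0.85, SE 0.12), Nfkbia, an inhibitor of NF-kappa-B (0.69, SE 0.10), and the X-linked Gpc3 (0.64, SE 0.11); Col3a1, a collagen of the meningeal list (0.63, SE 0.10), and Igfbp5 (0.50, SE 0.08) were the remaining calls, and over these 7 genes edgeR's adjusted p lay between 0.0130 and 0.0412. The meningeal list summed to 820.3, 493 and 509 CPM in males and 445, 552 and 432 in females, and its part in the call of Col3a1 was not tested. Fxyd2 read 5.13, 3.90 and 10.9 CPM in males and 0.928, 0.721 and 0.626 in females. The sensory ganglion list summed to 12.7, 8.35 and 30.9 CPM in the same male libraries and 4.33, 6.38 and 5.32 in the female ones, and its part in the call of Fxyd2 was not tested. None of 185 receptor genes and 121 channel genes tested was called, though 32 and 20 of them had ranges of the sexes apart, 17.3% and 16.5%, against 15.7% of all genes tested (9.97% with males higher and 5.73% with males lower). A missed threshold with 3 libraries a sex does not show equal levels.

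The count of 19 rested on few libraries. It became 7 without female library 1, 12 without female library 2, 11 without female library 3, 299 without male library 3 and 104 without male libraries 2 and 3, and 7 when the 4-week libraries also entered the estimate of spread. All 19 were among the 299 and the 104. Xist, Ddx3y, Eif2s3y, Uty, Kdm5d and Ddx3x kept their call in all 13 alternatives. Sgk1 lost it in 1 (4-week libraries added, adjusted p = 0.223, range over the 13 alternatives 4.68e-07 to 0.223), Penk in 1 (without female library 1, 0.0724, range 6.76e-09 to 0.0724), and Slc1a2 in 6, with adjusted p values between 2.23e-04 and 0.867. Of the other 10 genes, Arl4d, Gpc3 and Kdm5c also lost it in 6, Col3a1, Igfbp5 and Nfkbia in 5, Fxyd2 and Plekhf1 in 4, Gm2223 in 3 and Kdm6a in 2.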

How the data were processed

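Spinal cord RNA was sequenced in 10 libraries, of which the 6 of 8 weeks (3 male, 3 female) are described. Each library has 1 file of whole-number read counts by Entrez Gene identifier, which the authors deposited without normalization. The mouse build mm9, TopHat2 2.1.0 and featureCounts are named, with no role, per the submitters' processing notes; how multiple hits, strand and gene models were treated in counting is not given in the sources used here, and overlapping genes and near-identical copies are therefore uncertain. Symbols came from a RefSeq table (GRCm38.p6, 24191 of 26301 identifiers). Of 837 list entries 834 matched by symbol, 1 by an older symbol and 2 did not.

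Counts were scaled to CPM of each library's total. CPM per kb used the union of exons of a gene's GENCODE vM21 transcripts (those matched to RefSeq, for 13909 genes), available for 13971 of the 14925 genes with at least 1 CPM; this replaced the RefSeq length first intended, which spans start to end of the gene. A union that holds rare exons lowers CPM per kb. Shared sequence was the share of the 50-base windows of a gene's transcripts also found, on the same strand, in a GENCODE vM21 transcript of another gene. Detection meant a mean of at least 1 CPM, and means ± SD are over 6 libraries.

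Males and females were compared with edgeR 4.0.16 in R 4.3.3 (TMM scaling, filterByExpr with minimum count 10 and total 15, two-sided quasi-likelihood F test, Benjamini-Hochberg at 0.05), after a test on simulated data; an SE is the absolute log2 fold change over the square root of F. DESeq2 1.42.0 was an alternative, as were other size factors and filters, all 10 libraries, a replicate block and leaving out libraries. No pair of replicates was alike within sampling noise (chi-square per degree of freedom 1.98 to 6.06). Named genes were the 30 highest by CPM and by CPM per kb, the 3 highest and the lowest of each of 63 lists, members of lists of up to 8 genes, the 5 markers, the 10 with the largest CV, and up to 10 called by sex in each direction; other list members named to place these were picked after their values were seen. Some genes that this rule names are not reported here, though list sums and counts include them. The members and lists were chosen with earlier results of these data known.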

Additional observations from a re-analysis of the deposited data

Results flagged for a closer look

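In the 6 libraries of 8 weeks, 115 values were tested for 1 library far from the others, and 17 had one. The values were list sums, the most abundant genes, the marker genes, the genes with the largest CV and COX3. Sex-linked genes were left out. Genes with the largest CV were picked for their spread in these libraries, COX3 was added singly, and the lung genes are not independent. The 17 therefore cannot be set against the 1 in 20 that chance alone gives. Male library 2 stood highest for summed lung genes (898 CPM against 2.57 to 105), Sftpb (62.7, others at most 5.87), Sftpc (385, at most 43.0), Scgb1a1 (272, at most 32.2), Sftpa1 (63.9, at most 8.14), Ager (57.1, at most 7.57) and Cbr2 (49.1, at most 8.42 CPM). It was also highest for the aquaporins other than Aqp4 (29.7 against 15.3 to 18.4 CPM) and for the mitochondrial COX3 (45.0 against 0.568 to 2.93 CPM). Male library 1 stood highest for meningeal genes (820.3 against 432 to 552), Ptgds (1401 against 691 to 937) and the lysosomal Psap (1958 against 1784 to 1844 CPM), and male library 3 for sensory ganglion genes (30.9 against 4.33 to 12.7 CPM). Female library 1 stood highest for fat genes (70.3 against 10.9 to 30.7), female library 2 for newly forming oligodendrocyte genes (1270.2 against 1169 to 1203), and female library 3 for growth factor receptors (1570.3 against 1493 to 1518) and transmitter transporters (1729.9 against 1625 to 1656 CPM).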

How the results depend on the processing

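Scaling by TMM moved none of the 850 gene levels and 63 list sums followed by more than 1 SD. Single libraries decided some of them. The lung sum, 169 CPM, was 23.3 CPM without male library 2, 2.96 CPM without male libraries 2 and 3, and 3.21 CPM as a median; Sftpc, at 71.5 CPM, was 8.80 and 0.259, and Scgb1a1, at 50.7 CPM, was 6.44 and 0 CPM without the same libraries. The sum of sensory ganglion genes, 11.3 CPM, was 7.41 CPM without male library 3 and 7.18 without male libraries 2 and 3. Under these alternatives none of the other sums moved by over 1.5 times, and of the 742 genes at 1 CPM or above, 11 did without male library 2, 18 without male libraries 2 and 3, and at most 2 without any other single library. Leaving the 10 most abundant genes out of the totals moved 315 levels and 46 sums up, and those 10 genes then equalled 9.20% of the remaining counts in place of 8.43%. The detected genes, 14925 at 1 CPM, were 15946 at 0.5 CPM and 12124 at 5 CPM, and the highest list member by CPM per kb was also highest by CPM in 43 of 63 lists.

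The number of genes called between the sexes, 19 (13 higher and 6 lower in males), did depend on it. It was 39 (23 and 16) with DESeq2, 7 (5 and 2) with all 10 libraries, 104 (53 and 51) without male libraries 2 and 3, and between 7 and 299 (5 to 94 higher, 2 to 205 lower) when a single library was left out. With a replicate block it was 116 (48 higher and 68 lower). The labels do not say whether the numbers pair the samples. Deviations of same-numbered male and female libraries correlated at −0.0847, 0.0407 and 0.2599. Over all combinations the correlations ran from −0.2812 to 0.2599, and not every library correlated best with its own number. With 3 libraries a sex, such values cannot decide whether the samples are paired. The cause of these shifts was not tested. No direction reversed for the 19 genes. Genes near 1 CPM rest on about 10 counts a library.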
